A study of Mus musculus with 24 samples.

Results

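Nitric oxide and cGMP signalling was followed through 10 genes in frontal cortex punches of mice. The members were chosen by gene name, with the results of sarcosine against vehicle known. They are the neuronal nitric oxide synthase (Nos1), the soluble guanylate cyclase subunits (Gucy1a1, Gucy1a2, Gucy1b1), C-type natriuretic peptide and its receptor (Nppc, Npr2), the cGMP-dependent kinases (Prkg1, Prkg2) and 2 phosphodiesterases (Pde5a, Pde2a). All 10 were found among the 57180 genes of the deposited table, and all 10 passed the filter on low values (10 or more in 6 or more of the 24 libraries), which left 16578 genes to test. Because the choice followed from the sarcosine libraries and the vehicle libraries, values, intervals and calls of the members in that contrast are given as a description and support nothing.

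The mice were wild type C57BL/6 males of 4 weeks, injected daily into the peritoneum for 28 days in a volume of about 200 µl. The vehicle group received no drug, the sarcosine group 100 mg/kg sarcosine, the memantine group 20 mg/kg memantine, and the combination group 100 mg/kg sarcosine with 20 mg/kg memantine. Each group has 6 libraries of total RNA. Sarcosine is N-methylglycine, which blocks the glycine transporter GlyT1 and can occupy the glycine site of NMDA receptors, the glutamate receptors that pass calcium. Memantine blocks their open channel. Nothing beyond the sample titles tells how libraries relate to animals, so p-values measure the spread between these samples.

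In cortical neurons, calcium entering through NMDA receptors activates the neuronal synthase, which the scaffold PSD-95 holds near the receptor. The nitric oxide it makes binds the heme of soluble guanylate cyclase, a dimer of an alpha subunit and the beta subunit, and the dimer then makes cGMP. C-type natriuretic peptide raises cGMP by a separate route, through the membrane receptor Npr2, whose inner part is itself a guanylate cyclase. The kinases Prkg1 and Prkg2 carry the signal onward, and Pde5a and Pde2a break cGMP down.

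Promoter sequence is shown for Gucy1a2 and Nppc, the alpha-2 cyclase subunit that was higher and the peptide that was lower with sarcosine, and for Gucy1b1, the beta subunit that pairs with both alpha subunits. Each line holds the 250 bases before an annotated start, read 5′ to 3′ on the gene's strand, from RefSeq on GRCm38.p6. The windows lie at chr9:3532099-3532348 on the plus strand for Gucy1a2, at chr3:82074712-82074961 on the minus strand for Gucy1b1, and at chr1:86670574-86670823 on the minus strand for Nppc. Capitals mark matches on either strand to the E-box CACGTG, the cAMP response element TGACGTCA, its core TGACG, the GC box GGGCGG and the TATA box TATAAA.
Gucy1a2: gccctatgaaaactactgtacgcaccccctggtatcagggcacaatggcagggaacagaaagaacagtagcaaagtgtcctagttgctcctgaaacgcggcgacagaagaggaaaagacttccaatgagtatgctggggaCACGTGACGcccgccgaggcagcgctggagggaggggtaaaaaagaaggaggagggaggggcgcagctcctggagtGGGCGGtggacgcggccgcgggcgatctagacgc
Gucy1b1: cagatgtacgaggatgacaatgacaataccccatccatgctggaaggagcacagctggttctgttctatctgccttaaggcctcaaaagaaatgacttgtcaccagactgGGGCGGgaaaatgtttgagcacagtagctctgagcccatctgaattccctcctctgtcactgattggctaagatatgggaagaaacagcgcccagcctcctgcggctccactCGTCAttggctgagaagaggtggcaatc
Nppc: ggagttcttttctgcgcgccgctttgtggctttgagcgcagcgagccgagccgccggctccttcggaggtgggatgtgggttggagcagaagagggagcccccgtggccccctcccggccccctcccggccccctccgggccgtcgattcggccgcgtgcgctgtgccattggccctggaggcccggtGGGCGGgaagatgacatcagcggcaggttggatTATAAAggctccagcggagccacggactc

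The Gucy1a2 window held 1 E-box and 1 core of the cAMP response element, which overlap each other, and 1 GC box. The Gucy1b1 window held 1 GC box and 1 core on its reverse strand, and the Nppc window 1 GC box and 1 TATA box. None of the 3 windows held the full cAMP response element. Among 32851 promoter windows of the same length, 6.02% held the E-box, 17.8% the core (which also lies within the full element), 32.7% the GC box, 12.4% the TATA box and 1.55% the full element. A match describes letters in the window and shows no binding. The promoter table matched 9 of the 10 members, all except Prkg2, in 15 windows.

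Values below are normalised counts, the authors' read counts scaled by a size factor per library. Depth, recovered from the values, was 15543738 to 17425235 reads per library with vehicle and 17008198 to 21844579 with sarcosine. It was 12678114 to 19714592 with memantine and 14700861 to 15653093 with the combination. The part that depth plays in the differences was not tested. Markers of other tissue varied between libraries within groups. Slc17a7, the glutamate transporter of cortical excitatory neurons, was found in every library at 3901 to 44936 normalised counts. The striatal Drd1 ranged from 126 to 1313, the olfactory bulb gene Cdhr1 from 71.2 to 3464, the choroid plexus gene Ttr from 0.897 to 52720 and the myelin gene Mbp from 12037 to 128952. Sarcosine replicate 1 had the lowest Slc17a7 and the highest Drd1 of all 24 libraries. Sarcosine replicate 4 had the lowest value of its group in 7 of the 10 members, and sarcosine replicate 5 the highest in 6.

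Between sarcosine and vehicle, Gucy1a2 and Pde2a were higher and Nppc was lower, and these were the 3 of 10 members with an adjusted p under 0.05 in limma. Of all tested genes 9.34% were called in this contrast, 4.72% higher and 4.62% lower, and since the contrast led to the choice of members nothing is read from the count. Called here means a Benjamini-Hochberg adjusted p under 0.05 over all tested genes. The median log2 fold change of the 10 members was 0.18, beside -0.0032 for all tested genes. The ranges of the sarcosine and the vehicle libraries overlapped for every member. In bulk tissue, fewer cells of a type cannot be told apart from less RNA per cell.

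**Figure D1:**
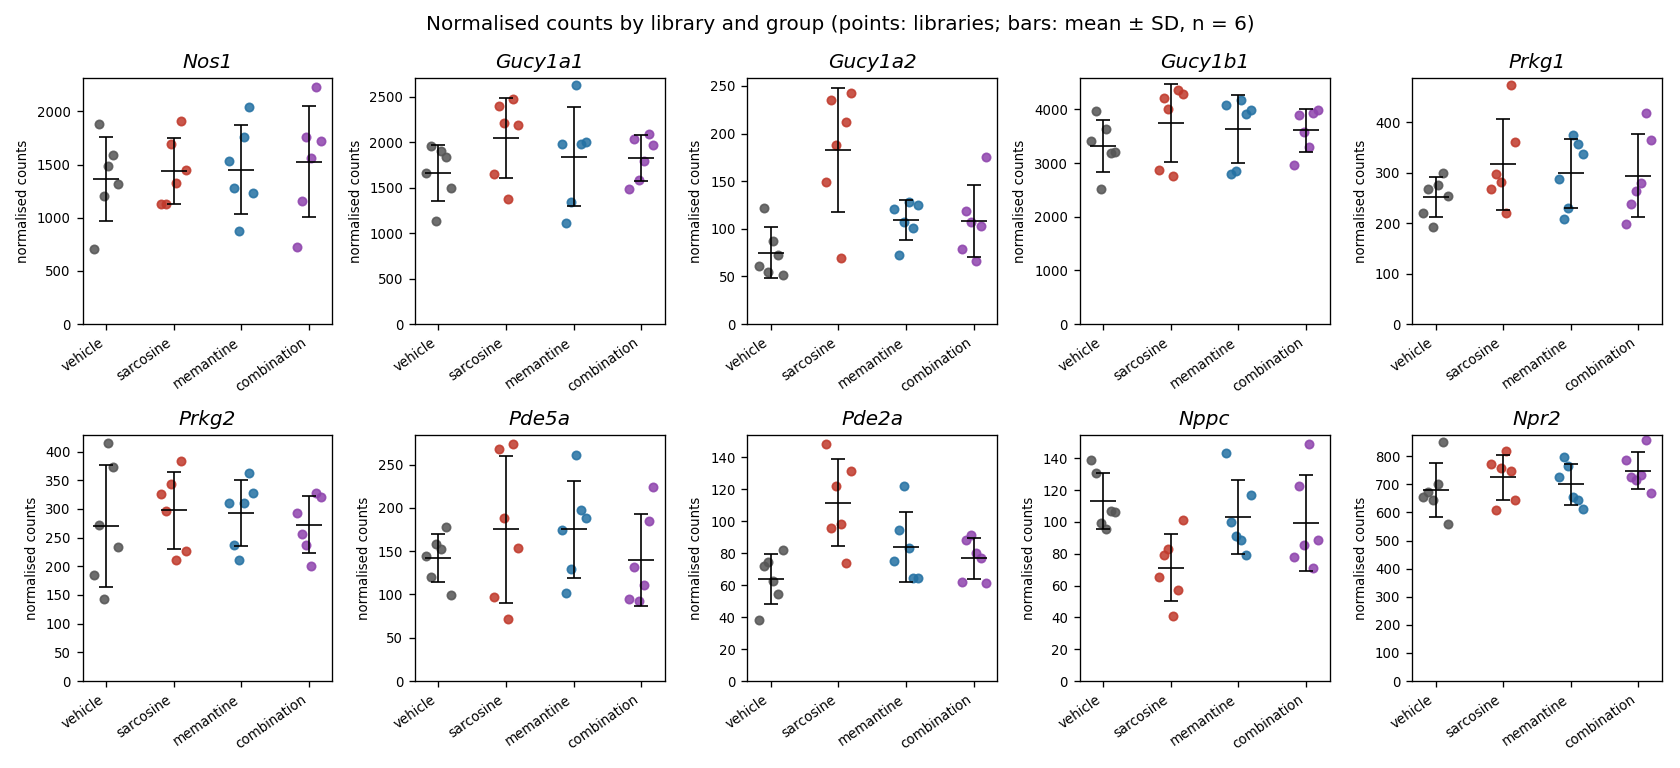
Normalised counts of the 10 members (vertical axis, from 0, on a scale of its own for each gene) in the libraries of the 4 groups; points are libraries and the black marks are group means with SD (n = 6). For Gucy1a2, 5 of the 6 sarcosine libraries lie above every vehicle library, and for Nppc the sarcosine mean of 71.2 is the lowest of the 4 groups.

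The neuronal synthase Nos1 varied widely within each group. With vehicle it ranged from 707 to 1884 normalised counts around a median of 1401, and with sarcosine from 1129 to 1909 around 1389. The memantine libraries ranged from 870 to 2042 around 1405, and the combination libraries from 727 to 2234 around 1646. The 4 ranges lay largely over one another. The log2 fold change of sarcosine against vehicle was 0.11 ± 0.25 (SE), and it was -0.35 when marker scores of olfactory bulb, striatum, oligodendrocytes and choroid plexus were added to the model. Nos1 was not called in any of the 6 contrasts.

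Nos1 is most abundant in a rare class of cortical interneurons that also make somatostatin and neuropeptide Y. The summed normalised counts of 5 markers of that class (Chodl, Sst, Npy, Tacr1, Nxph2) were 4542 to 7076 with vehicle and 3061 to 4625 with sarcosine. They were 3509 to 4877 with memantine and 3541 to 4913 with the combination, and none of the 5 was at 0 in any library. Over the 24 libraries the median was 3378 for Sst, 980 for Npy and 15.3 for Chodl, so Chodl adds little to the sums. The marker score, a mean of centred log2 values, gives each marker the same weight. It averaged 0.159 ± 0.108 (SD) with vehicle and -0.018 ± 0.220 with sarcosine. With memantine the score was -0.138 ± 0.219, and with the combination -0.003 ± 0.113. Of the 5, only Sst, which encodes somatostatin, was called, with a log2 fold change of -0.53 in sarcosine against vehicle (limma, adjusted p = 0.0196). In that contrast 9.34% of all tested genes were called. After group means were taken off, Nos1 correlated weakly with the marker score of that class over the 24 libraries (Pearson's r = 0.33, Spearman's rho = 0.29), and r was 0.43 without the 2 libraries farthest from the median score. The part of this interneuron class in the Nos1 values was not tested. Nos1 also moved with scores of other markers. Its r was -0.56 with oligodendrocyte markers (rho = -0.62, and r = -0.39 without 2 libraries) and -0.52 with choroid plexus markers.

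Of the cyclase subunits, Gucy1a2, the alpha-2 chain, differed most between groups. With vehicle it ranged from 51.2 to 122 normalised counts around a median of 66.7, and with sarcosine from 69.2 to 242 around 200.1. With memantine it ranged from 72.1 to 128 around 114, and with the combination from 65.8 to 175 around 105. The highest vehicle library was replicate 2. Sarcosine replicate 4 was the low library of its group at 69.2, and the other 5 sarcosine libraries, from 149 to 242, exceeded all 6 vehicle libraries. Group means were 74.8 ± 26.7 (SD, n = 6) with vehicle and 183 ± 65.3 (SD, n = 6) with sarcosine, a 2.35-fold difference in the model. The log2 fold change was 1.23 ± 0.27 (SE), with a 95% interval of 0.67 to 1.80.

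The alpha-1 chain Gucy1a1 and the beta chain Gucy1b1 were more abundant and closer between groups. Gucy1a1 ranged from 1137 to 1957 normalised counts with vehicle around a median of 1747, and from 1369 to 2473 with sarcosine around 2202. Under memantine it spanned 1113 to 2624 around 1979.7, and with the combination from 1481 to 2090.1 around 1877. The libraries of the 4 groups overlapped, and the log2 fold change of sarcosine against vehicle was 0.29 ± 0.18 (SE). Gucy1b1, the chain without which no soluble cyclase dimer forms, ranged from 2508 to 3960 with vehicle around 3313 and from 2764 to 4357 with sarcosine around 4106. With memantine it ranged from 2802 to 4178 around 3952, and with the combination from 2968 to 3986 around 3731. Its groups overlapped as well, and its log2 fold change of sarcosine against vehicle was 0.16 ± 0.14 (SE).

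Per kilobase of exonic sequence, the alpha-2 chain was the minor alpha subunit in all 24 libraries. Its share of the summed alpha subunits was 4.45% ± 0.97 (SD, n = 6) with vehicle and 8.31% ± 1.81 (SD, n = 6) with sarcosine. With memantine the share was 6.02% ± 1.03 (SD, n = 6), and with the combination 5.80% ± 1.65 (SD, n = 6). The sarcosine libraries ran from 5.03% in replicate 4 to 10.4%, and the vehicle libraries from 3.48% to 6.14%, so the ranges overlapped. The ratio of the beta chain to the summed alpha chains per kilobase averaged 3.42 in the vehicle group, 3.00 in the sarcosine group, 3.41 in the memantine group and 3.32 in the combination group. The share contains the Gucy1a2 values of the contrast that led to the choice of members and is a description.

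Nppc, the precursor of C-type natriuretic peptide, was lowest with sarcosine. It ranged from 95.4 to 139 normalised counts with vehicle around a median of 107, and from 41.0 to 101 with sarcosine around 72.4. The memantine libraries lay between 79.4 and 143 around 95.8, and the combination libraries between 71.3 and 149 around 87.1. Sarcosine replicate 4 was the lowest library, and only sarcosine replicate 6, at 101, lay within the vehicle range. Group means were 113 ± 17.7 (SD, n = 6) with vehicle and 71.2 ± 21.1 (SD, n = 6) with sarcosine. The log2 fold change was -0.70 ± 0.20 (SE), with a 95% interval of -1.12 to -0.29.

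The Nppc call ended when 1 library was left out in 4 of 24 cases: without sarcosine replicate 4 (-0.56), without sarcosine replicate 5 (-0.65), without vehicle replicate 1 (-0.64) and without vehicle replicate 2 (-0.66). It also ended in 6 of 13 other alternatives, among them a correction for transcript length and GC content, which moved the value to -0.53. The receptor Npr2, through which the peptide makes cGMP, ranged from 558 to 852 normalised counts with vehicle and from 609 to 817 with sarcosine. It ranged from 613 to 795 with memantine and from 668 to 859 with the combination. The groups overlapped almost wholly, and the log2 fold change of sarcosine against vehicle was 0.096 ± 0.092 (SE).

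The kinases differed little between groups. Prkg1, the kinase of smooth muscle and of many neurons, ranged from 192 to 299 normalised counts with vehicle and from 219.5 to 473 with sarcosine. It ranged from 209 to 374 with memantine and from 198 to 419 with the combination. Sarcosine replicate 5 was the highest of the 24 libraries, the groups overlapped, and the log2 fold change of sarcosine against vehicle was 0.30 ± 0.19 (SE). Prkg2, the membrane-bound kinase, ranged from 143 to 415 with vehicle, 211 to 383 with sarcosine, 211 to 363 with memantine, and 200.4 to 328 when both were given. The vehicle group held both the lowest and the highest of the 24 libraries, and the log2 fold change of sarcosine against vehicle was 0.20 ± 0.22 (SE).

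Of the phosphodiesterases, Pde2a, which cGMP itself stimulates to hydrolyse cAMP and cGMP, was higher with sarcosine. It ranged from 38.3 to 81.8 normalised counts with vehicle around a median of 67.1, and from 74.1 to 148 with sarcosine around 110.2. With memantine it ranged from 64.3 to 122 around 79.1, and with the combination from 61.6 to 91.4 around 78.5. Sarcosine replicate 1 was the highest library, and sarcosine replicate 5, the lowest of its group, lay within the vehicle range. Group means were 63.8 ± 15.7 (SD, n = 6) with vehicle and 112 ± 27.1 (SD, n = 6) with sarcosine, a 1.74-fold difference in the model. The log2 fold change was 0.80 ± 0.19 (SE), with a 95% interval of 0.40 to 1.20. Its call ended with the correction for length and GC content, at 0.76.

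The level of Pde2a is uncertain, because its annotation is shared. The same holds for its differences between groups, which may rest on a minority of its exonic bases. In GENCODE vM21 on GRCm38 the gene lies at chr7:101421691-101512827, and 3955 of its 6149 exonic bases (64.3%) are also exonic in Gm45837, a predicted gene on the same strand. Gm45837 was at 0 in 21 libraries and reached at most 2.01 normalised counts in the other 3. How reads in shared bases were counted is not given in the sources used here. Of the 2194 bases that are not shared, 972 lie in retained-intron transcripts and 534 in protein-coding ones, and a transcript type can share bases with another. Reads in the bases not shared were not counted apart. If every counted read fell in them, the median level per kilobase would be 35.8 normalised counts, with a range of 17.4 to 67.5. The exonic bases of Npr2 (5.70%), Nos1 (2.40%) and Pde5a (0.559%) overlap genes on the opposite strand, and whether strand was used in counting is not given.

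Pde5a, the cGMP-specific phosphodiesterase that sildenafil inhibits, spread most within the sarcosine group. It ranged from 71.6 to 274 normalised counts with sarcosine around a median of 171, and from 99.5 to 178 with vehicle around 149. With memantine it ranged from 101 to 261 around 181, and with the combination from 92.5 to 224 around 121. The sarcosine libraries lay on both sides of the vehicle range, replicate 4 lowest and replicate 5 highest. The log2 fold change of sarcosine against vehicle was 0.16 ± 0.30 (SE).

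The other contrasts asked what memantine does alone, what both drugs do together, and what each adds to the other. With memantine alone, 0 of 10 members were called in limma, beside 0.0121% of all tested genes, and 1 had an unadjusted p under 0.05, beside 14.7% of all genes. edgeR and DESeq2 on the recovered reads called 0 members too. The largest differences from vehicle were those of Gucy1a2, 0.58 (log2; limma, adjusted p = 0.330; 6 of 6 memantine libraries above the vehicle mean of log2 values), and of Pde2a, 0.39 (limma, adjusted p = 0.345; 6 of 6). With the combination, 0 of 10 were called in limma, edgeR and DESeq2, beside 0.543% of all tested genes in limma, and 0 had an unadjusted p under 0.05, beside 14.2% of all genes. Gucy1a2 again had the largest value, 0.52 (limma, adjusted p = 0.403; 5 of 6 libraries above that mean). Here and below, libraries are counted against the other group's mean of log2 values, which is lower than the log2 of its mean. These contrasts share the vehicle libraries with each other and with sarcosine against vehicle.

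Combination against memantine is the comparison of sarcosine whose fold changes used no library of the contrast behind the choice of members. Its intervals and p-values are not free of that contrast, because they rest on 1 estimate of the spread over all 24 libraries. Gucy1a2, Pde2a and Nppc were not called in combination against memantine, nor in a fit of the compared groups alone. For Gucy1a2 the log2 fold change was -0.054, with a 95% interval of -0.62 to 0.51 (limma, adjusted p = 0.997), and 3 of 6 combination libraries lay below the memantine mean of log2 values. For Pde2a it was -0.11, with an interval of -0.51 to 0.29 (limma, adjusted p = 0.997), and for Nppc -0.080, with an interval of -0.49 to 0.33 (limma, adjusted p = 0.997). The values of sarcosine against vehicle, 1.23, 0.80 and -0.70, come from the contrast behind the choice and carry errors of their own. Nothing is read from setting the intervals against them. Of the 10 members 0 were called in limma, edgeR and DESeq2, beside 0.0543% of all tested genes in limma, and 0 had an unadjusted p under 0.05, beside 7.72% of all genes. The largest value was that of Pde5a, -0.34 with an interval of -0.96 to 0.27 (limma, adjusted p = 0.925).

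The test of whether sarcosine differed with and without memantine is the interaction, which contains the contrast behind the choice. In it 0 of 10 members were called in limma and 0 in edgeR, beside 1.82% of all tested genes, while 3 had an unadjusted p under 0.05, beside 16.8% of all genes, and DESeq2 called 2, Gucy1a2 and Pde2a, beside 5.64% of all genes in DESeq2. The interaction was -1.29 ± 0.39 (SE, log2) for Gucy1a2, -0.91 ± 0.27 for Pde2a and 0.62 ± 0.28 for Nppc. Gucy1a2 was called in limma when combination replicate 6 (-1.44), sarcosine replicate 4 (-1.54) or vehicle replicate 2 (-1.44) was left out. In the limma fit of 4 group means and in edgeR a difference between the contrasts of sarcosine was therefore not shown. Limma also called Gucy1a2 with library weights (-1.57) and Pde2a with region scores as covariates (-0.90).

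Combination against sarcosine shares the 6 sarcosine libraries with the contrast behind the choice. In it 0 of 10 members and 0 of 16578 genes were called in limma, a background of 0%; 3 members had an unadjusted p under 0.05, as did 8.7% of all tested genes. edgeR called 0 genes and DESeq2 called 45, with 0 members among them. The 3 members were Gucy1a2 at -0.71 (limma, adjusted p = 0.452; 5 of 6 combination libraries below the sarcosine mean of log2 values), Pde2a at -0.52 (adjusted p = 0.440; 6 of 6) and Nppc at 0.48 (adjusted p = 0.480; 6 of 6).

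**Figure D2:**
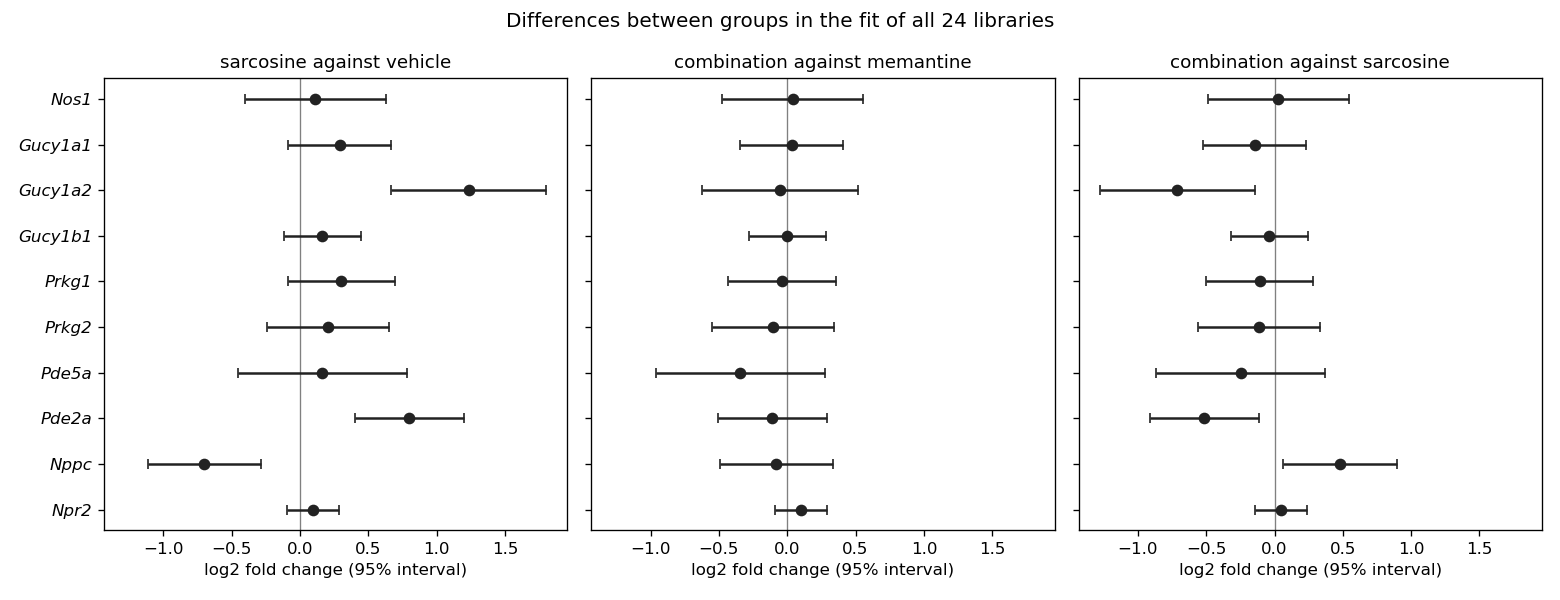
Log2 fold change of each member (horizontal axis) with its 95% interval from the limma fit of all 24 libraries, for sarcosine against vehicle, combination against memantine and combination against sarcosine. The intervals of all panels use the spread over all 24 libraries. Gucy1a2 stands at 1.23 in the left panel and at -0.054 in the middle panel, whose 12 libraries are not those of the left panel; the right panel shares the sarcosine libraries with the left.

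The wider pathway was read from 57 other genes of nitric oxide and cGMP signalling, of which 43 were tested. They were chosen with earlier results of these data known, so their calls in sarcosine against vehicle are descriptions. In sarcosine against vehicle 0 of 43 were higher and 2 lower in limma, beside 4.72% and 4.62% of all tested genes. The median log2 fold change of the 43 was 0.061, beside -0.0032 for all tested genes. Spr, sepiapterin reductase, makes tetrahydrobiopterin, a cofactor of nitric oxide synthases. It fell from 657 ± 49.7 normalised counts (SD, n = 6) with vehicle to 504 ± 26.1 with sarcosine, a log2 fold change of -0.38 (limma, adjusted p = 0.00589; lower in 6 of 6 libraries). Dynll1, a dynein light chain that binds the neuronal synthase, fell from 4638 ± 422 to 3605 ± 564, a log2 fold change of -0.37 (limma, adjusted p = 0.0161; 6 of 6). With the length and GC correction Spr kept its call (-0.40, adjusted p = 0.0321) and Dynll1 lost it (-0.31, adjusted p = 0.327).

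In combination against vehicle 1 of the 43 was called, beside 0.543% of all tested genes. It was Spr, lower at 501 ± 75.2 normalised counts (SD, n = 6) with a log2 fold change of -0.40 (limma, adjusted p = 0.0427; 6 of 6 libraries). In memantine against vehicle 0 of 43 were called (3 at an unadjusted p under 0.05, beside 14.7% of all genes; 0 in edgeR; 1 in DESeq2, beside 2.56%), and Spr had the smallest p, with a log2 fold change of -0.28 (limma, adjusted p = 0.124; 6 of 6). It was followed there by Nosip, which binds nitric oxide synthase, at -0.18 (limma, adjusted p = 0.235). All 3 Spr values share the vehicle libraries, and the call in the combination contrast ended in 14 of the 24 fits with 1 library left out. These were the fits without combination replicates 2, 3, 5 and 6, memantine replicates 1, 2 and 4, sarcosine replicates 3, 5 and 6, and vehicle replicates 1, 3, 4 and 6. In combination against memantine, whose libraries are separate from vehicle, the log2 fold change of Spr was -0.12 (limma, adjusted p = 0.836).

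In the remaining contrasts 0 of 43 were called by limma, edgeR and DESeq2. At an unadjusted p under 0.05 there were 2 genes in combination against sarcosine, beside 8.7% of all tested genes, 1 in combination against memantine, beside 7.72%, and 3 in the interaction, beside 16.8%. Pde3b, a phosphodiesterase that cGMP inhibits, had the smallest p in combination against sarcosine at -0.24 (limma, adjusted p = 0.452), followed by Nostrin, which binds the endothelial synthase, at 0.64 (adjusted p = 0.465). In combination against memantine these were Dynll1 at -0.25 (adjusted p = 0.467) and Gucy2e, a membrane guanylate cyclase, at 0.52 (adjusted p = 0.662). In the interaction they were Asl, argininosuccinate lyase, which makes arginine, at 0.41 (adjusted p = 0.200) and Nosip at 0.24 (adjusted p = 0.217).

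Per kilobase of exonic bases, the members spanned a wide range of levels over the 24 libraries. Gucy1b1 was the most abundant at a median of 958 normalised counts per kilobase, followed by Gucy1a1 at 277, Npr2 at 154, Nos1 at 132 and Nppc at 89.6. Prkg2 stood at 54.9, Prkg1 at 25.5, Gucy1a2 at 16.1, Pde5a at 15.6 and Pde2a at 12.8. The place of Pde2a is uncertain, because most of its exonic bases are shared with Gm45837. Divided by the bases not shared alone, its counts have a median of 35.8, above that of Prkg1. Gucy1b1 exceeded Gucy1a1 in 24 of 24 libraries and their ranges did not overlap. All other neighbours in this order had overlapping ranges: Npr2 exceeded Nos1 in 17 of 24 libraries, Gucy1a2 exceeded Pde5a in 14 and Pde5a exceeded Pde2a in 13. Npr2 was the steadiest, its highest normalised count being 1.54 times its lowest, and Gucy1a2 varied most, at 4.73 times.

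Within groups the cyclase subunits, the kinases and Pde5a moved together. After the mean of each group was taken off, all 15 pairs among Gucy1a1, Gucy1a2, Gucy1b1, Prkg1, Prkg2 and Pde5a correlated positively over the 24 libraries, with Pearson's r from 0.46 to 0.92 and a median of 0.71. This set was not named beforehand, so nothing is read from the count of positive pairs. Nos1, outside the set, was also positive with each of its genes, from 0.31 with Gucy1a2 to 0.71 with Prkg1. The strongest of the 45 pairs of members was Gucy1a1 with Gucy1b1 (r = 0.92, Spearman's rho = 0.87), and r was 0.89 without the 2 libraries farthest from the median of Gucy1b1. In GENCODE vM21 on GRCm38 these genes are neighbours on the minus strand of chromosome 3, Gucy1b1 at 82032006 to 82074689 and Gucy1a1 at 82092427 to 82145789, with 17.7 kb between them. Pde2a ran against the set, most with Pde5a (r = -0.45), and Npr2 ran against Gucy1b1 (r = -0.42). The 24 libraries share the tissue makeup of their punch, so these values are descriptions.

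**Figure D3:**
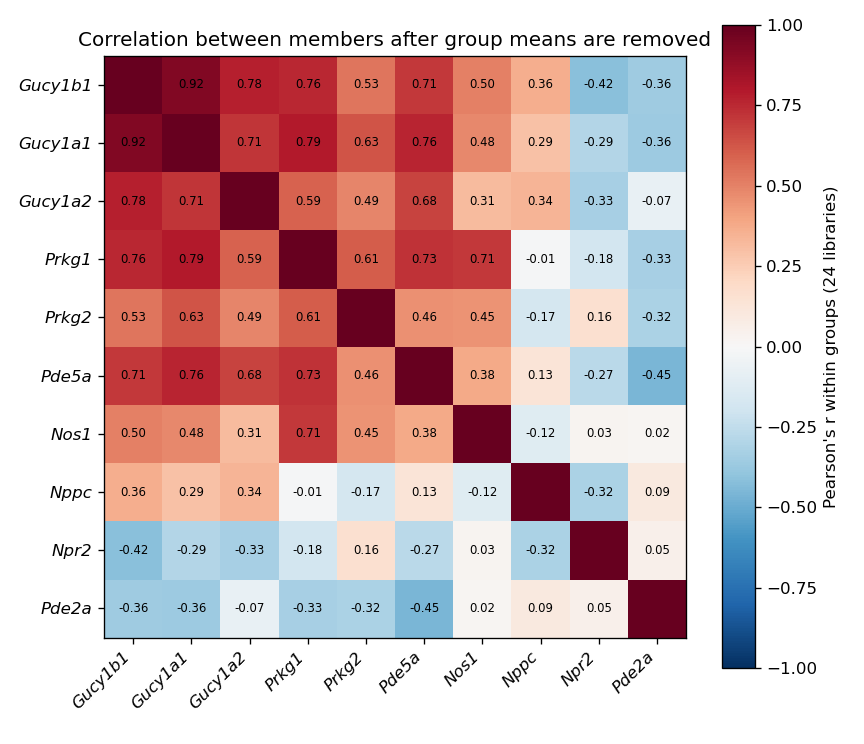
Pearson's r between each pair of members over 24 libraries after group means were taken off; red is positive and blue negative. The 6 genes from Gucy1b1 to Pde5a, not named as a set beforehand, form a block of positive values, the highest 0.92. Nos1 has positive values and Pde2a negative values with all 6 of them.

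Across all tested genes, the patterns most like a member were ranked by the same r over the 24 libraries. Cadm3 was among the 5 nearest to Gucy1b1 (r = 0.97). For Gucy1a1 they were Runx1t1 (r = 0.93) and Shisa9 (r = 0.93), with Gucy1b1 in the third place. For Gucy1a2 the nearest was Pcnx, with Adgrl3, Sptbn1 and Nr2c2 also at r = 0.90. The nearest gene was Dio3 for Nos1 (r = 0.88), Dpy19l3 for Prkg2 (r = 0.83) and Stard8 for Pde5a (r = 0.90). It was Dnah5 for Pde2a (r = 0.83), Jph1 for Nppc (r = 0.80) and Iqce for Npr2 (r = 0.90).

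Several members moved with markers of other cells or regions within groups, in 110 pairings of a member with 1 of 11 marker lists. Gucy1a1 was low where the score of 5 oligodendrocyte markers was high (r = -0.91, Spearman's rho = -0.88, and r = -0.90 without the 2 libraries farthest from the median score). The summed counts of these markers ran from 50117 to 280240 in the vehicle group and 28875 to 198347 in the sarcosine group. They ran from 27341 to 238257 in the memantine group and from 36435 to 237870 in the combination group. Gucy1a2 ran the same way (r = -0.66, rho = -0.63, and r = -0.70 without 2 libraries). So did Gucy1b1 (r = -0.90), Prkg1 (r = -0.79) and Prkg2 (r = -0.62), while Pde2a (r = 0.51) and Npr2 (r = 0.17) went the other way. None of the 5 markers was called in any contrast or was at 0 in any library, and their part in the cyclase values was not tested beyond the fit with marker scores, in which Gucy1a2 kept 1.16 in sarcosine against vehicle.

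Pde5a was low where 9 markers of striatal medium spiny neurons were high (r = -0.82, rho = -0.81, and r = -0.80 without 2 libraries). Pde2a was high there (r = 0.63, rho = 0.64, and r = 0.52 without 2 libraries). Members also moved with other lists. Pde5a did so with oligodendrocytes (r = -0.79) and interneurons in general (r = 0.77), and Pde2a with olfactory bulb (r = -0.62). With cortical excitatory neurons the r was 0.77 for Gucy1a1 and 0.87 for Gucy1b1. A link of a member to 1 cell type or region alone was therefore not shown. The summed striatal markers ran from 4295 to 9892 in the vehicle group and 3961 to 34399 in the sarcosine group. They ran from 4659 to 12442 in the memantine group and from 4598 to 17144 in the combination group. None of the 9 was called in any contrast by limma on the 4 group means, and Isl1 was at 0 in at least 1 library. In sarcosine against vehicle the median log2 fold change of the 9 was 0.64. Pde10a, which is 1 of them, was called in that contrast by edgeR and DESeq2. Sarcosine replicate 1 had both the highest striatal score and the highest Pde2a; without it the Pde2a difference from vehicle was 0.71, and with marker scores in the model it was 0.71. Nppc was low where 4 astrocyte markers were high (r = -0.68, rho = -0.70, and r = -0.75 without 2 libraries), and it was -0.65 with marker scores in the model, without its call.

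**Figure D4:**
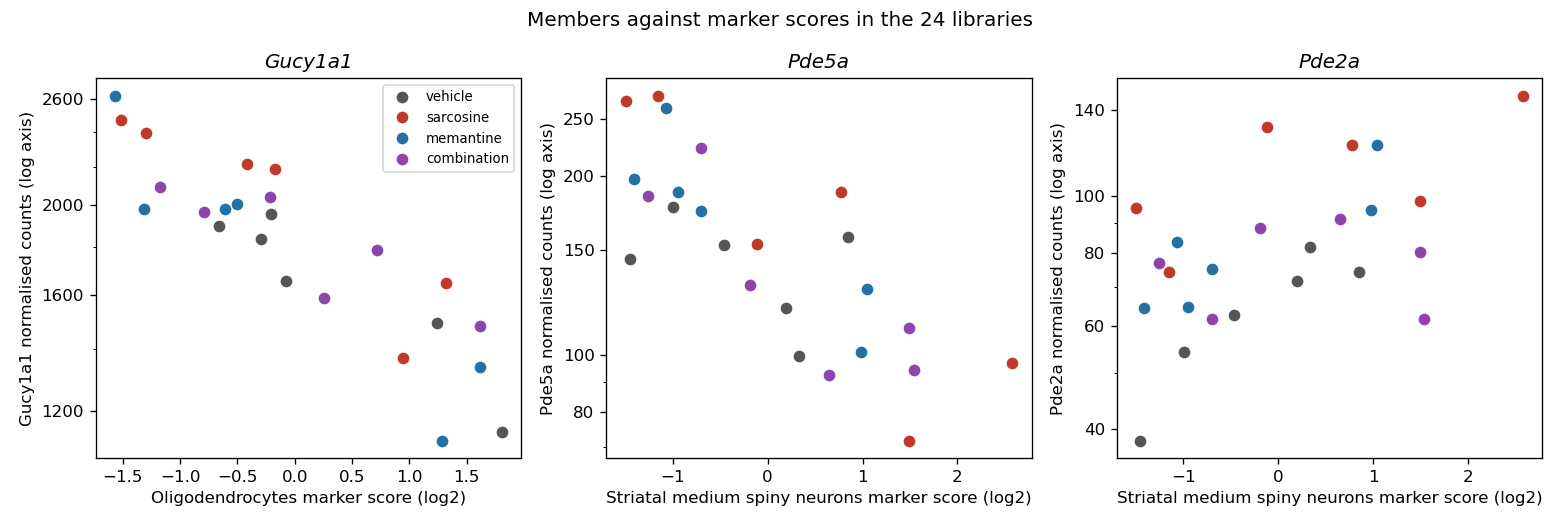
Normalised counts (vertical log axis) of Gucy1a1 against the oligodendrocyte marker score, and of Pde5a and Pde2a against the striatal marker score (horizontal axes, mean of centred log2 values); points are the 24 libraries, coloured by group. Gucy1a1 and Pde5a fall as the score rises (r within groups of -0.91 and -0.82), and Pde2a rises (0.63).

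Of the markers in the 11 lists, 5 were called by limma in sarcosine against vehicle, beside 9.34% of all tested genes. Beside Sst they were Cort, 1 of 6 tested markers of interneurons (log2 fold change -1.20), and Lhx2, 1 of 7 of the olfactory bulb list (-0.32). The others were Abcc9, 1 of 6 of smooth muscle and pericytes (0.58), and C1qa, 1 of 5 of microglia (-0.33). Limma called no marker of the other lists there, and nothing is read from the count. C1qa was also called in the interaction (0.52), beside 1.82% of all tested genes. The part of these cells in the members' values was not tested.

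Fold changes also followed transcript length across the whole table. Across 16287 tested genes with a known length, the log2 fold change of sarcosine against vehicle correlated with log10 length at r = 0.43; genes are not independent replicates. The same r was 0.32 in memantine against vehicle, 0.23 in combination against vehicle, -0.26 in combination against sarcosine, -0.095 in combination against memantine and -0.40 in the interaction. The longest annotated transcript has 1042 bases for Nppc, 3233 for Gucy1a2 and 4218 for Pde2a. The correction that removes this trend left Gucy1a2 at 1.23. What lies behind the trend was not tested.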

How the data were processed

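Per the submitters' processing notes, the tools were STAR, featureCounts 1.6.0, DESeq2 1.42.1 and FastQC, with build mm39; strand and overlap settings are not given in the sources used here. The deposited signal is a normalised count, the authors' reads of a gene scaled by 1 factor per library: within 0.01 of a read, 100% of values were whole multiples of 1 step per library, which gave back the reads. In memantine replicate 5 that step lay near 1.

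Values were analysed as log2(value + 1) with limma 3.58.1 (R 4.3.3, empirical Bayes with trend, 4 group means over 24 libraries, two-sided) for 6 contrasts, with Benjamini-Hochberg adjustment over 16578 genes. Intervals of 95% use limma's degrees of freedom. Marker scores are means of centred log2 values. Alternatives (edgeR 4.0.16, DESeq2 1.42.0, pseudocounts, filters, scaling, libraries left out and others) are listed in the closing section. The fit was also run on simulated counts, drawn for each gene apart, without shared tissue makeup or a length trend. That run does not cover these features of the data.

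The members, the 57 pathway genes and the marker lists were chosen with earlier results of these data known. All members are named. Of the other pathway genes, those called are named, up to 4 per direction and contrast, or the 2 with the smallest p. Exonic bases, lengths and gene coordinates come from GENCODE vM21 (GRCm38), which is not the files' build, and were matched by gene identifier (16287 genes, 98.2%). Counting error is not shown separately from the spread between libraries.

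Some results of the ranking by likeness are not reported here.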

Additional observations from a re-analysis of the deposited data

Results flagged for a closer look

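For Pde2a, the libraries given memantine lay on opposite sides of their comparison group without and with sarcosine. All 6 memantine libraries lay above the vehicle mean, with a mean log2 difference of 0.39, and all 6 combination libraries lay below the sarcosine mean, with a mean log2 difference of -0.52. The difference between these differences, the interaction, was -0.91 on the log2 scale (SE 0.27). Neither difference was called. The interaction was not called by limma or edgeR with adjustment over all tested genes, and it was called by DESeq2 and by limma with region scores as covariates. The interaction contains sarcosine against vehicle, the contrast with which the members were chosen, and the Pde2a annotation is shared with Gm45837. In 40 groups of 6 libraries, 0 had a library far enough from the others to stand apart by Dixon's criterion, where chance would give about 2.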

How the results depend on the processing

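Of 2210 values of member fold changes under alternatives, 2181 kept their direction or stayed within 1 SE and on their side of the threshold, 11 moved, 7 gained a call, 11 lost one and 0 called values changed sign. The cause of each change was not tested. In sarcosine against vehicle, 1 member was called with the length and GC correction in place of 3. In the interaction 2 were called with DESeq2 (beside 5.64% of all genes), 1 with library weights (9.14%) and 1 with marker scores of the regions as covariates (2.33%), in place of 0, and 0 to 1 with 1 library left out. Of the 43 pathway genes, sarcosine against vehicle gave 2 calls, and 7 with DESeq2 (beside 12.9% of all genes), 8 with library weights (19%), 4 with region scores (9.05%), and 1 each with the length and GC correction, the compared groups alone and upper quartile scaling; with 1 library left out it gave 2 to 4, the 4 without sarcosine replicate 4. Memantine against vehicle gave 1 with DESeq2 (2.56%) and 1 with library weights (2.54%) in place of 0. Combination against vehicle gave 2 with DESeq2 (2.85%), 2 with library weights (1.98%) and 2 with region scores (1.36%) in place of 1, and 0 with the length and GC correction, no filter, the compared groups alone and upper quartile scaling; with 1 library left out it gave 0 to 1.

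Counts over all tested genes also depended on the settings. In sarcosine against vehicle 1548 genes were called, and 187 with the length and GC correction to 3149 with library weights; in memantine against vehicle 2, and 1 to 424; in combination against vehicle 90, and 1 to 473. In combination against sarcosine 0 were called, and 0 to 45; in combination against memantine 9, and 4 to 61; in the interaction 301, and 0 to 1516. With 1 library left out these counts were 1078 to 1936, 1 to 42, 1 to 361, 0 to 14, 3 to 51 and 0 to 983, in the same order. The interaction could not be fitted with the compared groups alone, which are all 4.

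The replicate numbers were not taken as pairing the samples: over 36 pairs with the same number, deviations from the group means correlated at -0.75 to 0.73, 18 over 0.1, and 9 of 36 were best with their own number. Number 5 stood apart, with r of 0.33 to 0.72 in 6 of 6 pairs, 5 of them best with their own number, and it had the highest olfactory bulb score in all 4 groups. With the replicate number as a block, 3 members were called in sarcosine against vehicle and 0 in the other 5 contrasts, as without it. All genes called numbered 1525 in sarcosine against vehicle, 18 in combination against vehicle and 131 in the interaction with the block. The lowest member count was 33 reads in a library, for Pde2a, so the low members carry more counting error than Gucy1b1, whose lowest was 2396.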

Other observations

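The 2 other nitric oxide synthases, named after their values were seen, were less abundant than Nos1. Nos3, the synthase of endothelium, averaged 157 ± 35.7 normalised counts (SD, n = 6) in the vehicle group and 144 ± 20.9 in the sarcosine group. Its means were 169.7 ± 30.5 in the memantine group and 139.8 ± 28.2 in the combination group. Nos2, the inducible synthase of activated immune cells, averaged 13.5 ± 3.94 with vehicle and 12.2 ± 3.75 with sarcosine. With memantine it averaged 11.8 ± 3.86, and the combination libraries ran from 1.14 to 26.7. Neither gene was called by limma in any contrast.

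Npr1, the receptor of atrial and brain natriuretic peptides, was spread widely: 44.2 to 117 normalised counts in the vehicle libraries, 34.7 to 311 in those of sarcosine, 50.3 to 255 in those of memantine and 26.3 to 333 in the combination. Pde10a, a striatal phosphodiesterase that is also in the striatal marker list, ran from 589 to 1278 with vehicle and from 931 to 7204 with sarcosine. Pde1b, a calcium-dependent phosphodiesterase, ran from 2425 to 3113 with vehicle and from 2522 to 7782 with sarcosine. The groups overlapped for all 3 genes, and limma on the 4 group means called none of them in any contrast. In sarcosine against vehicle Pde10a was called by edgeR (adjusted p = 0.0295), by DESeq2 (adjusted p = 0.00435), by limma with library weights (adjusted p = 0.0303) and without sarcosine replicate 2 (adjusted p = 0.0348). Pde1b was called there by DESeq2 (adjusted p = 0.0367).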
